A study of Homo sapiens with 10 samples.

Results

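The loci of 7 genes of the AP-1 transcription factor family were examined in ChIP-seq peak lists of the lung adenocarcinoma cell lines H441 and A549: JUN, JUNB, JUND, FOS, FOSL1, FOSL2 and ATF3. A locus was a fixed window of the hg18 genome, and every called peak that shared at least 1 bp with a window was taken as a member. The windows were JUN chr1:58980001-59060000, JUNB chr19:12730001-12800000, JUND chr19:18220001-18280000, FOS chr14:74780001-74850000, FOSL1 chr11:65390001-65450000, FOSL2 chr2:28430001-28530000 and ATF3 chr1:210770001-210900000. They hold 83 of the 79601 peaks of the 7 called lists. These 83 peaks form 31 separate sites when peaks that overlap in different lists are joined. No annotation of hg18 was used here, so peaks are given by position and are not assigned to a promoter, exon or intron. A window can hold other genes. In the RefSeq annotation of GRCh38, JUNB overlaps HOOK2, and the next protein-coding genes on either side of FOSL1 are CCDC85B and C11orf68.

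AP-1 is a dimer of basic leucine zipper proteins. JUN proteins can pair with each other or with FOS proteins, while FOS proteins need a JUN partner, and ATF3 is a stress-induced member that can pair with JUN proteins. Several AP-1 genes are known as immediate early genes. JUNB is a textbook early target of TGF-β, and Smad3 and Smad4 are known to act with AP-1 at many TGF-β response elements. TTF-1 (NKX2-1) is the homeodomain lineage factor of lung epithelium.

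The labels give H441 as positive and A549 as negative for TTF-1. Smad3 and Smad4 were mapped in H441 cells transfected with a control siRNA (siControl) or an siRNA against TTF-1 (siTTF-1), TTF-1 was mapped in H441 cells at 0 h and 1.5 h, and Smad3 was mapped in A549 cells. The treatment given for all cells is 1 ng/ml TGF-β3 for 1.5 h, and whether the 0 h cells were left untreated is read from the title alone. With 1 library per condition, differences between conditions have no replicate check, and peaks are not replicates. In H441 cells the Smad3 lists held 8941 (siControl) and 14145 peaks (siTTF-1), the Smad4 lists 1 and 1605, and the TTF-1 lists 31083 (0 h) and 21291 (1.5 h). The A549 Smad3 list held 2535. Peak calling used a false discovery rate limit of 1% in the 4 H441 lists of Smad3 and TTF-1, of 5% in the A549 list and of 10% in both Smad4 lists. Read depth is unknown from the lists. A list shows what passed its limit, so a site missing from a list may still have been occupied below it. Peaks carry a number that runs from 1 to the length of their list. What this number ranks is stated nowhere in the labels, and it is used below as a place in the list and not as a strength.

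Upstream sequences of 3 members are shown because they stand for the range of the results: JUNB, with peaks in the most lists, JUN, with the most TTF-1 peaks at 0 h, and FOS, with no peak. Each is the 250 bases before the annotated start in RefSeq on GRCh38.p14, 5′ to 3′ on the strand of the gene. They lie at chr19:12791236-12791485 (plus strand) for JUNB, chr1:58784048-58784297 (minus strand) for JUN and chr14:75278578-75278827 (plus strand) for FOS. These positions are on a build other than that of the peaks, so peaks cannot be placed on these letters. Capitals mark matches on either strand to CAAG, the core bound by NKX2-1, and to TGACATCA, the AP-1 site variant known from the JUN promoter.
JUNB: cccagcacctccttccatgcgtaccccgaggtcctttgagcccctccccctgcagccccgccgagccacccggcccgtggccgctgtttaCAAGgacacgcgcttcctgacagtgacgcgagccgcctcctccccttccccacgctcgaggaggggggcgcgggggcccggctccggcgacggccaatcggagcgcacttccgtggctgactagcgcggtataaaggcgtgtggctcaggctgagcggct
JUN: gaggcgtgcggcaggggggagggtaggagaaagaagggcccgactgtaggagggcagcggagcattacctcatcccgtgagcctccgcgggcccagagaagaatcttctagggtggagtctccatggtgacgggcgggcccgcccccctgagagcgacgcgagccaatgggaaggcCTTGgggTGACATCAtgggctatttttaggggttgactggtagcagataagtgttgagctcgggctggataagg
FOS: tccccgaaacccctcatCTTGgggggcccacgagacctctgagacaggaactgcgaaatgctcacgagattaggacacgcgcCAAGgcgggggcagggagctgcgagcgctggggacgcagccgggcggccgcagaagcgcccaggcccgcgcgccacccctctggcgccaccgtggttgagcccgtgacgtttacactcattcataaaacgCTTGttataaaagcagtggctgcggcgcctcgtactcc
TGACATCA was present in JUN, 67 to 60 bases before the start. It was also present in the ATF3 entry that begins further upstream, 123 to 116 bases before that start, and in 2.37% of all 35116 promoter entries. CAAG was present once in JUNB, once in JUN and in 3 places in FOS, and 80.9% of all entries hold it. The full cyclic AMP response element TGACGTCA was present in JUND alone of the 6 members with an entry, and in 1.65% of all entries. The Smad-binding CAGA box, searched as CAGAC, was present in FOSL2 and in the second ATF3 entry and in 38% of all entries. The AP-1 element TGANTCA was in none of the 7 entries of the members and in 6.57% of all entries. No match overlapped another. A match of these letters is a description of the sequence and not a binding site.

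Of the 7 loci, 6 had at least 1 peak and FOS had none. Smad3 siControl peaks were present in 5 loci, Smad3 siTTF-1 peaks in 6, TTF-1 peaks in 6 at each time, Smad4 siTTF-1 peaks in 2 and A549 Smad3 peaks in 2. As background, genome tiles of the same lengths held a peak in 14.6% of cases for Smad3 siControl, 20.9% for Smad3 siTTF-1, 36.3% for TTF-1 0 h and 28.8% for TTF-1 1.5 h. The background was 3.6% for Smad4 siTTF-1, 0.00251% for Smad4 siControl and 4.71% for A549 Smad3. These tiles include gene-poor and unassembled stretches, so the comparison is with the genome and not with other gene loci. Over all lists there were 21 peaks at FOSL2, 19 at JUN, 15 at JUNB, 13 at ATF3, 9 at JUND and 6 at FOSL1. The windows differ in length, from 60 to 130 kb. Per 100 kb the values were 23.8 for JUN, 21.4 for JUNB, 21 for FOSL2, 15 for JUND and 10 each for FOSL1 and ATF3. The single Smad4 siControl peak lay in none of the windows.

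**Figure D1:**
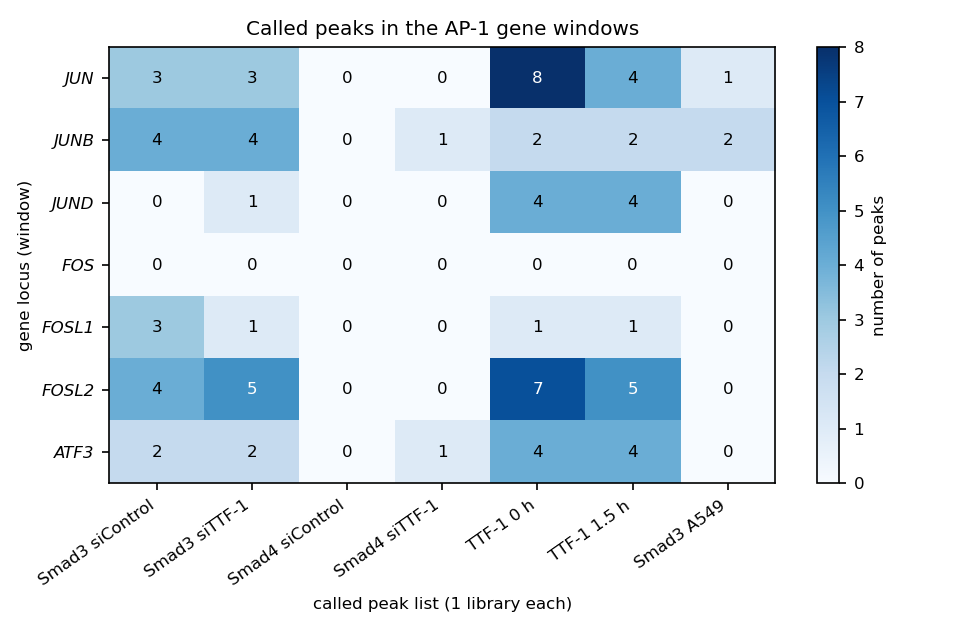
Number of called peaks in each AP-1 gene window (rows) in each of the 7 lists (columns, 1 library each), with darker cells for more peaks. JUN has 8 TTF-1 0 h peaks against 4 at 1.5 h, JUNB is in 6 lists, and the FOS row is 0 throughout.

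Among the JUN genes, JUNB had the earliest-numbered peaks. JUNB encodes a JUN protein that can limit the activity of JUN on some promoters. Its window held Smad3 at 4 sites in siControl cells and at the same 4 sites after siTTF-1, and 2 of these sites were also Smad3 sites in A549 cells. The leading site (chr19:12754601-12757449 in the siTTF-1 list) was number 3 of 14145 in Smad3 siTTF-1, number 5 of 8941 in Smad3 siControl, number 7 of 2535 in A549 Smad3 and number 40 of 1605 in Smad4 siTTF-1. TTF-1 was called there too, but in the body of its lists, at number 8882 of 31083 at 0 h and 10457 of 21291 at 1.5 h. This was the only one of the 31 sites found in 6 lists, which 0.677% of the 37950 sites of the whole series reached.

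The other 3 JUNB sites followed directly. At chr19:12757601-12758999 the Smad3 siTTF-1 peak was number 1030 and the siControl peak number 1962, and TTF-1 was called at 0 h (number 13546) and 1.5 h (number 14505). At chr19:12760001-12764499 the siTTF-1 peak was 4499 bp wide, the 4th widest of its list, against 1699 bp for the siControl peak inside it, and an A549 peak (number 1296) lay within both. The last site, chr19:12764551-12766599, had Smad3 in both H441 lists, at number 1861 after siTTF-1 and 1425 in siControl cells, and no peak in any other list. The upper pair of sites was thus without TTF-1 and the lower pair with it.

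Together the siTTF-1 peaks covered 10796 bp of an 11999 bp stretch, 90% of it, with gaps of 51 to 1001 bp. The siControl peaks covered 6946 bp of 11849 bp, 58.6%, with gaps of 851 to 2701 bp. The run stood by itself: no list had a peak in the 70 kb on either side of the JUNB window, and the nearest Smad3 peaks of H441 lay 775 kb below and 208 kb above it. As many as 4 Smad3 siControl peaks were found in 0.605% of 70 kb tiles of the genome, and as many as 4 siTTF-1 peaks in 1.3%. For the 2 TTF-1 0 h peaks the share was 17.9%.

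**Figure D2:**
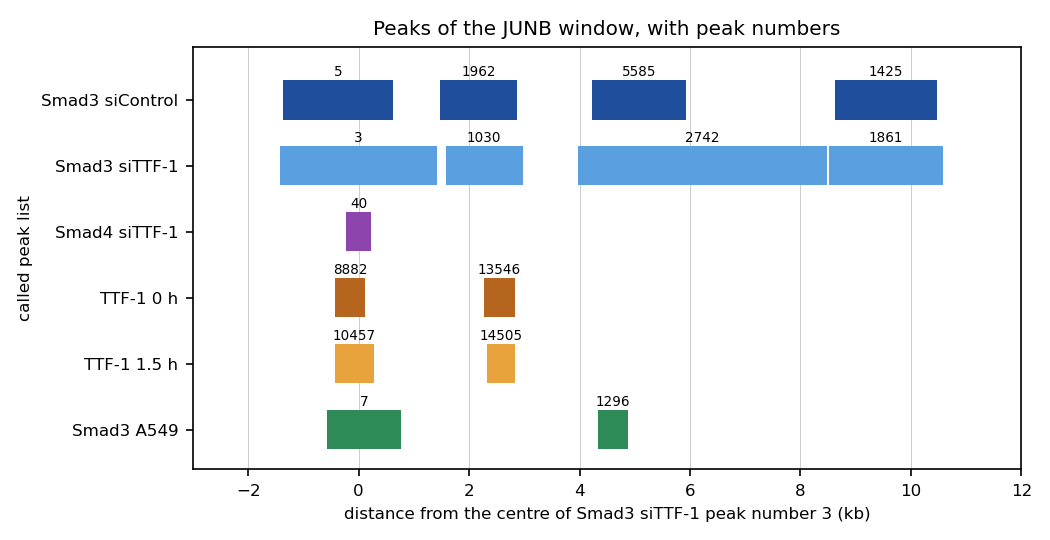
Peaks of the JUNB window in the 6 lists that have one, drawn to scale along the distance in kb from the centre of Smad3 siTTF-1 peak number 3, with the peak number above each bar. The Smad3 peaks of H441 form a run of 4, Smad4 sits in the first, and TTF-1 sits in the first and the next.

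JUN, the founding member of the family, led with TTF-1 by peak number. Its lowest-numbered peaks were TTF-1 peaks, at chr1:59001801-59003649 at 0 h (number 49 of 31083) and at chr1:59001901-59003349 at 1.5 h (number 44 of 21291). A Smad3 siControl peak lay inside them (chr1:59002451-59003249, number 258 of 8941), and no Smad3 siTTF-1 peak was called there. By number this was the 4th of the 1718 siControl peaks with no siTTF-1 counterpart. It had no Smad4 or A549 peak.

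At 2 further JUN sites Smad3 was called in both H441 lists. At chr1:59018951-59020499 the siControl peak was number 7708 and the siTTF-1 peak number 12049, and 2 TTF-1 0 h peaks (numbers 30220 and 24487) lay within the siControl peak. At chr1:59052601-59055099 the siControl peak was 2499 bp wide, the 24th widest of its list, and was number 8147 of 8941. The siTTF-1 peak there was number 12375. This site had no TTF-1 peak and held the one A549 peak of the window, chr1:59053451-59053899 (number 259 of 2535). A Smad3 peak found in the siTTF-1 list and not in siControl cells lay at chr1:58993801-58994349 and was number 14080 of 14145, on a TTF-1 site of both times. As many as 3 Smad3 peaks were found in 1.91% of 80 kb tiles for siControl and in 3.81% for siTTF-1.

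TTF-1 had 8 peaks in the JUN window at 0 h and 4 at 1.5 h. As many as 8 were found in 0.52% of 80 kb tiles at 0 h, and as many as 4 in 3.12% at 1.5 h. All 4 peaks of 1.5 h lay on 0 h peaks. Beside the leading site these were chr1:58993801-58994449 (number 11802, and 15142 at 0 h), chr1:59022251-59023299 (18692, and 15449 at 0 h) and chr1:59047751-59048099 (16543, and 15276 at 0 h), of which the last 2 carried no Smad peak. The 4 peaks of 0 h alone stood late in the list, at numbers 24487 to 30220 of 31083. Of these, 2 lay in the kept Smad3 site above and 2, at chr1:59010501-59011199 and chr1:59018201-59018649, carried TTF-1 alone. Smad4 was not called in the JUN window.

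JUND, the JUN protein that is expressed broadly in resting cells, had TTF-1 peaks and 1 Smad3 peak inside its window. TTF-1 was called at the same 4 sites at both times. The 0 h peaks were chr19:18225501-18226349 (number 22164), chr19:18270451-18270799 (21754), chr19:18272851-18273299 (15183) and chr19:18276101-18276449 (19683). The 1.5 h peaks were chr19:18225601-18226349 (number 21079), chr19:18270451-18270849 (17791), chr19:18272851-18273299 (12172) and chr19:18276151-18276449 (13585), so 3 of the sites lay close together at the upper end of the window. One Smad3 siTTF-1 peak (chr19:18272951-18273299, number 10245) lay in the middle one of these 3. No Smad3 siControl, Smad4 or A549 peak was called inside the window. This depends on where the window ends. Smad3 peaks lay 7.7 kb beyond its upper edge in siControl (number 1896) and siTTF-1 cells (number 2462). TTF-1 peaks lay 7.65 kb beyond the same edge, at number 282 at 0 h and 216 at 1.5 h. With windows widened by 20 kb, Smad3 siControl peaks were in 6 loci in place of 5. As many as 4 TTF-1 peaks were found in 3.74% of 60 kb tiles at 0 h and in 1.84% at 1.5 h.

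Among the FOS genes, FOS itself, the classical partner of JUN, had no peak in any of the 7 lists. The nearest peaks lay 42.5 kb below the window for TTF-1 (numbers 9474 at 0 h and 8454 at 1.5 h) and 42.6 kb below for Smad3 siTTF-1 (number 14113 of 14145). For Smad3 siControl the nearest was 109 kb above, for Smad4 siTTF-1 129 kb above and for A549 Smad3 222 kb above. Over the genome an empty 70 kb tile is common, since 39.8% of these tiles held a peak of any list. The tiles include gene-poor and unassembled stretches, so this does not compare FOS with other gene loci.

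FOSL1, which encodes FRA1, had more Smad3 peaks in siControl than in siTTF-1 cells. The siControl peaks were chr11:65415101-65416399 (number 4742), chr11:65427151-65427699 (number 7011) and chr11:65439651-65440749 (number 2755). The last of these was still called after siTTF-1 (chr11:65439751-65440499, number 5721) and was the TTF-1 site of the window, with numbers 18406 at 0 h and 20005 at 1.5 h. The other 2 had no siTTF-1 peak and no TTF-1, Smad4 or A549 peak. Of all 1718 siControl peaks lost after siTTF-1, 93.2% had a TTF-1 peak at 0 h or 1.5 h, so the 2 FOSL1 peaks belong to the minority without one. As many as 3 siControl peaks were found in 1.2% of 60 kb tiles, and 1 or more siTTF-1 peaks in 17.8%.

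FOSL2, which encodes FRA2, had the most sites with JUN, 8 each. Smad3 was called at 4 sites in siControl and 5 in siTTF-1 cells, and 3 of these were shared. The shared sites were chr2:28525851-28526649 (siTTF-1 number 1194, siControl 4007), chr2:28521851-28522749 (3134 and 2209) and chr2:28482801-28483599 (9265 and 7090). The first 2 of them had TTF-1 at both times and the third had none. The siControl peak without a siTTF-1 peak, chr2:28463651-28463899, was number 8848 of 8941 and lay on a TTF-1 site. The siTTF-1 peaks without a siControl peak, chr2:28435701-28436149 (number 5548) and chr2:28472951-28473399 (number 9563), lay on TTF-1 0 h peaks at numbers 29641 and 30136 of 31083. FOSL2 had 7 TTF-1 peaks at 0 h and 5 at 1.5 h, with no Smad4 and no A549 peak. As many TTF-1 peaks were found in 1.79% of 100 kb tiles at 0 h and 2.4% at 1.5 h, and as many Smad3 peaks in 1.16% for siControl and 1.17% for siTTF-1. The lowest 0 h numbers were 3984 (chr2:28521801-28522799), 7998 (chr2:28500201-28500849) and 11084 (chr2:28526301-28526599). The 1.5 h numbers at these 3 sites were 7824, 7529 and 5580, and the other 1.5 h peaks were 19370 (chr2:28473051-28473449) and 21223 (chr2:28463751-28464399). The site at chr2:28500201-28500849 and a 0 h peak at chr2:28468051-28468399 (number 22574) carried TTF-1 alone.

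ATF3 had 4 sites, and TTF-1 was called at each of them at both times. At chr1:210835901-210836799 Smad3 was called in both H441 lists, at number 6547 in siControl and 3258 in siTTF-1 cells, together with Smad4 (chr1:210836201-210836449, number 336 of 1605). The TTF-1 peak there was number 12047 of 31083 at 0 h and 2798 of 21291 at 1.5 h. The Smad3 siControl peak at chr1:210840951-210841699 (number 6330) had no siTTF-1 peak, and the siTTF-1 peak at chr1:210848351-210848849 (number 6706) had no siControl peak. TTF-1 was numbered 5391 at 0 h and 6084 at 1.5 h at the former and 4655 and 6323 at the latter. The remaining site, chr1:210807051-210807799, carried TTF-1 alone, at numbers 4234 and 3321. As many as 4 TTF-1 peaks were found in 12.6% of 130 kb tiles at 0 h and in 7.29% at 1.5 h. For the 2 Smad3 peaks of each H441 list the share was 9% (siControl) and 14.8% (siTTF-1). Among genome tiles of this length the TTF-1 0 h and Smad3 siTTF-1 counts were thus not rare. The tiles do not show how common such counts are at other gene loci. A549 Smad3 was not called in the ATF3 window.

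**Figure D3:**
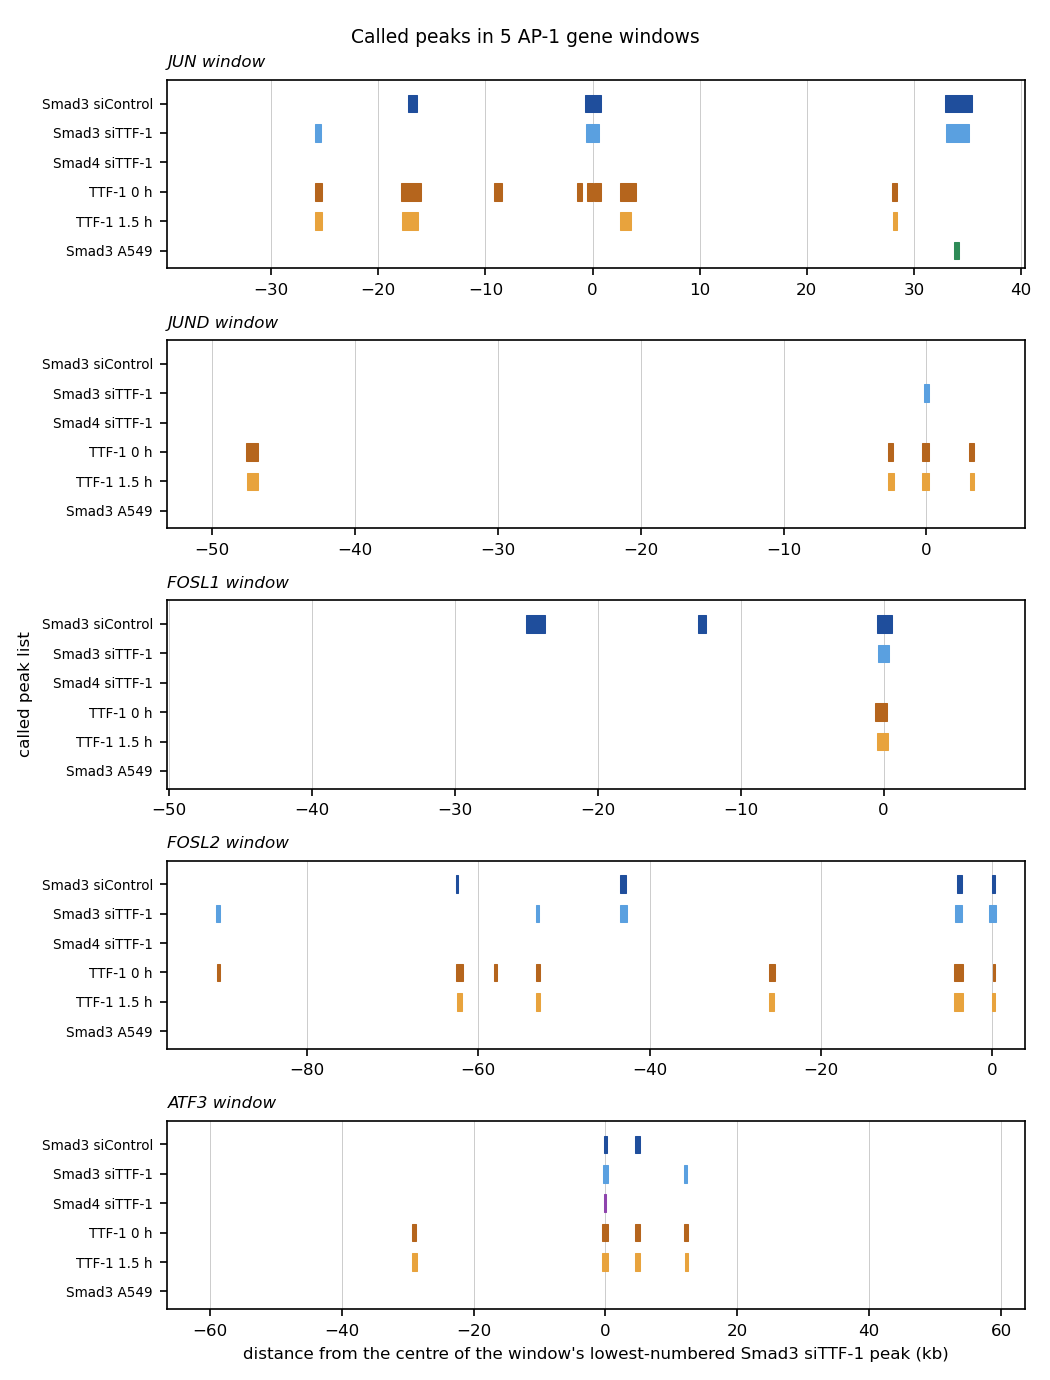
Peaks of the JUN, JUND, FOSL1, FOSL2 and ATF3 windows by list, along the distance in kb from the centre of each window's lowest-numbered Smad3 siTTF-1 peak. Bars are to scale with a thin outline. Smad4 appears in ATF3 alone of these 5 windows and A549 Smad3 in JUN alone.

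The first comparison over all 7 loci asked what TTF-1 depletion did to Smad3. The windows held 16 Smad3 peaks in each condition, which was 0.179% of the siControl list and 0.113% of the longer siTTF-1 list. Of the 16 siControl peaks, 11 were still called after siTTF-1 (68.8%, exact 95% interval 41.3 to 89), against 80.8% of the whole list. In the siTTF-1 list 5 of the 16 peaks lacked a siControl partner (31.2%, 11 to 58.7), against 49.1% of the whole list. Both shares of the whole lists lie inside these intervals, which are Clopper-Pearson intervals for counting error only. The equal number of 16 hides a different makeup. Inside the windows JUNB kept all 4, FOSL1 went from 3 to 1, JUND from 0 to 1 and FOSL2 from 4 to 5. The equality also depended on the settings. Windows widened by 20 kb held 17 siControl and 18 siTTF-1 peaks, and windows narrowed by 10 kb held 13 and 11. Merging peaks within 500 bp gave 16 and 14, and counting only whole peaks inside the window gave 16 in each. Without JUNB the kept share was 58.3% and without FOSL1 it was 76.9%.

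Widths were compared in the 11 kept pairs. The siTTF-1 peak was the wider one in 7 of 11 pairs, in JUNB, FOSL2 and ATF3, and the narrower one in JUN and FOSL1, with 1 JUNB pair of equal width. Over the whole list 53.1% of kept peaks were wider after siTTF-1. At the widest JUNB site the width was 1699 bp in siControl and 4499 bp in siTTF-1 cells, at ATF3 499 and 749 bp, and at the JUN site with the A549 peak 2499 and 2149 bp.

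**Figure D4:**
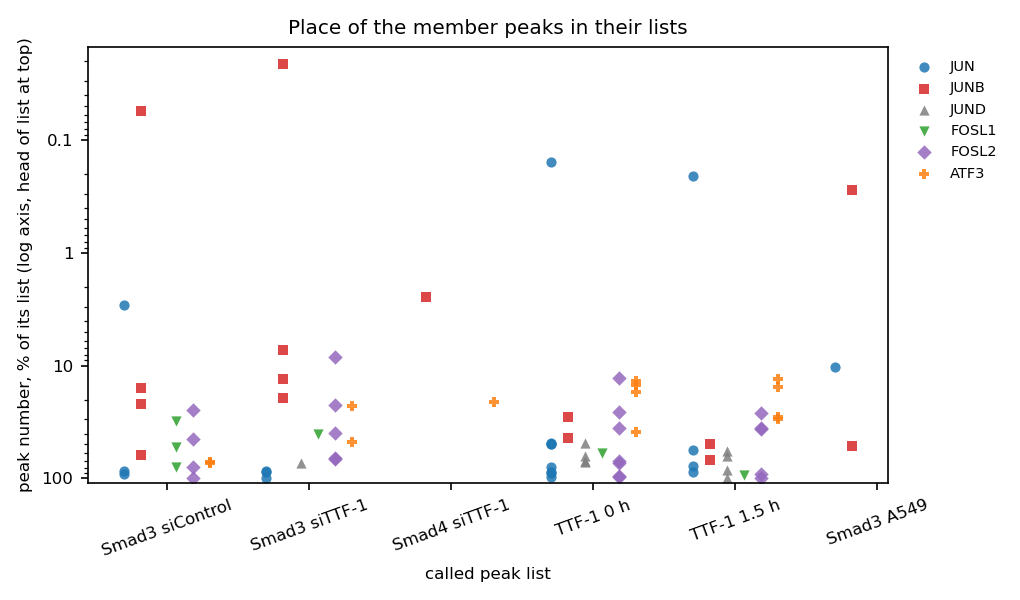
Place of each member peak in its list, as the peak number in percent of the list on a log axis with the head of the list at the top, for the 6 lists with members. Among these peaks JUNB comes first in both H441 Smad3 lists, at 0.0559% and 0.0212%, and A549 at 0.276%, while JUN comes first in the TTF-1 lists at 0.158% and 0.207%.

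The next comparison set Smad3 against TTF-1. Of the 16 Smad3 siControl peaks, 9 overlapped TTF-1 at 1.5 h (56.2%, 29.9 to 80.2), against 82.2% of the whole list, and the 7 without one were 2 each in JUNB, JUN and FOSL1 and 1 in FOSL2. The share of the whole list lies just above this interval, but several of the 16 peaks share a locus and the interval treats them as separate. Leaving out 1 locus at a time gave 50% to 61.5%. With the 0 h list, 10 of the 16 had TTF-1 (62.5%, 35.4 to 84.8), against 87.7% of the whole list, which also lies above the interval. With centres within 200 bp in place of a shared base, 31.2% had TTF-1 1.5 h, against 72.8% of the whole list. Of the 16 Smad3 siTTF-1 peaks, 12 overlapped TTF-1 at 0 h (75%, 47.6 to 92.7), against 62.5% of the whole list. With the 1.5 h list, as used first for siControl peaks, 10 of these 16 had TTF-1 (62.5%). The share of the whole siTTF-1 list with TTF-1 at 1.5 h was not computed. Counting either time, all 5 gained peaks overlapped a TTF-1 peak (39.6% of all gained peaks). The same held for 3 of the 5 lost peaks (93.2% of all lost peaks) and 7 of the 11 kept peaks (88.7% of all kept peaks). The titles of the TTF-1 lists name no siRNA, so these overlaps do not show TTF-1 in siTTF-1 cells.

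Seen from TTF-1, 11 of the 26 TTF-1 0 h peaks had a Smad3 siControl peak (42.3%, 23.4 to 63.1), against 25.1% of the whole list, and 13 of 26 had a Smad3 siTTF-1 peak (50%, 29.9 to 70.1), against 28.5%, a value just below the interval. At 1.5 h, 9 of the 20 TTF-1 peaks had a Smad3 siControl peak (45%, 23.1 to 68.5), against 34.3%. Of the 31 sites, 15 carried both Smad3 and TTF-1 in H441 cells (48.4%), against 27.7% of the 37950 sites of the whole series. Smad3 without TTF-1 was found at 6 (19.4%), against 13.4%, and TTF-1 without Smad3 at 10 (32.3%), against 55.8%. Both classes with Smad3 thus lay above their share of the series, so the first value alone does not show more sharing with TTF-1. JUND and JUN held 7 of the 10 sites with TTF-1 alone.

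TTF-1 itself was compared between 0 h and 1.5 h. Of the 26 peaks at 0 h, 20 were called again at 1.5 h (76.9%, 56.4 to 91), against 65.3% of the whole list. The 6 that were not lay in JUN (4) and FOSL2 (2), at numbers 22574 to 30220 of 31083. All 20 peaks of 1.5 h had a 0 h peak, against 95.8% of the whole list. The 1.5 h peak was the wider one in 5 of the 20 pairs, against 26.7% of all 20303 pairs.

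Smad4 and A549 Smad3 marked few of the sites. Of the 21 sites with Smad3 in H441 cells, 2 had Smad4 siTTF-1 (JUNB and ATF3), 3 had A549 Smad3 (2 in JUNB, 1 in JUN) and the leading JUNB site had both. Smad4 was present at 2 of the 16 Smad3 siTTF-1 peaks (12.5%, 1.55 to 38.3), against 9.06% of the whole list, and at 2 of the 16 siControl peaks, against 10.1%. A549 peaks were present at 3 of 16 peaks in each Smad3 list (18.8%, 4.05 to 45.6), against 10.3% of the siTTF-1 and 11.9% of the siControl list. Leaving out 1 locus moved these small counts: for siTTF-1 peaks the Smad4 share was 7.14% without ATF3 and 8.33% without JUNB, and the A549 share 8.33% without JUNB. All 3 A549 peaks of the windows lay on a Smad3 siTTF-1 peak (29.2% to 100%), against 58.2% of the whole A549 list, and all 3 of these sites were Smad3 sites in siControl cells too. None of the sites with an A549 or Smad4 peak was gained or lost. These are few sites, and 80.8% of all siControl peaks were still called after siTTF-1. The kept share of all Smad3 peaks with Smad4 or A549 Smad3 was not computed.

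**Figure D5:**
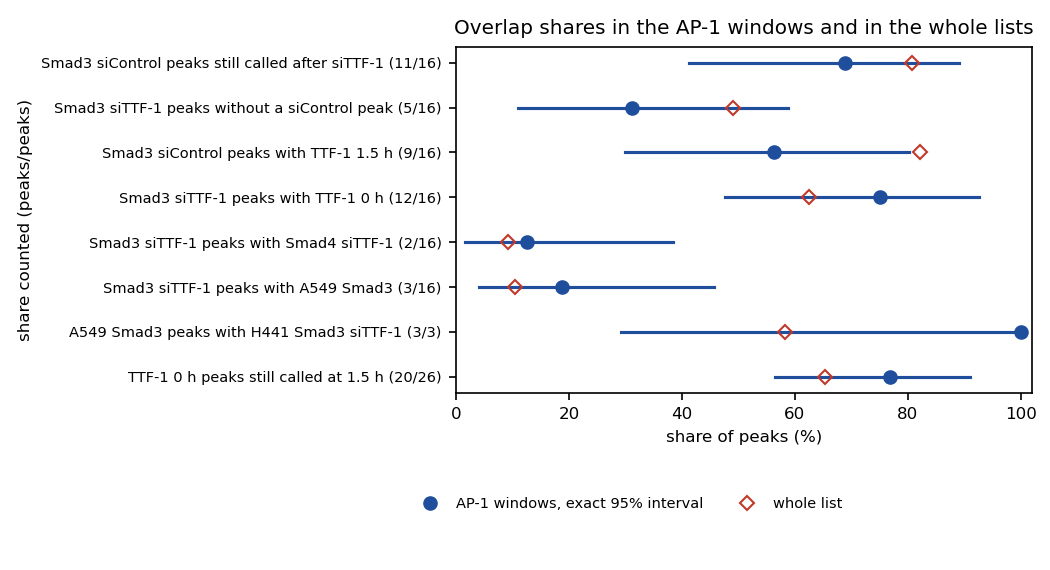
Share of peaks (%) that met another list within the 7 windows (filled points, bars are exact 95% intervals, counts in the labels) and over the whole list (open diamonds). Of the 8 shares plotted, the diamond lies outside the bar for Smad3 siControl peaks with TTF-1 1.5 h, at 82.2% against an upper bound of 80.2%.

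Peaks were denser in the windows than over the genome. Over 0.57 Mb there were 28.1 peaks per Mb in each H441 Smad3 list, against 2.95 per Mb over the genome for siControl and 4.67 for siTTF-1. TTF-1 had 45.6 per Mb at 0 h and 35.1 at 1.5 h, against 10.3 and 7.03. The flanks of equal length on both sides, 2 times the length in all, held 8 and 15 Smad3 peaks (siControl and siTTF-1) against 16 and 16 inside, and 22 and 15 TTF-1 peaks (0 h and 1.5 h) against 26 and 20 inside. The density inside was therefore higher than beside the windows for these 4 lists and for A549 Smad3, with 3 peaks inside and 3 in the flanks. For Smad4 siTTF-1, with 2 inside and 4 in the flanks, it was equal. The windows were set with peaks of these data known, so their density is a description.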

How the data were processed

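Peak lists of ChIP-seq libraries, 1 per condition and grouped by title, were analysed. The 3 input samples were not analysed here. Per the labels, the authors called peaks against input DNA of the same cell line. Positions are on hg18 (submitters' processing notes), and the aligner and caller are not given in the sources read. The deposited score was 1000 for every peak and was not used. Starts came in steps of 50 bp and were converted to count from 1. The authors' derived subset lists were not used, and 1 track line was skipped.

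Overlap needed 1 bp. Shares have exact Clopper-Pearson 95% intervals. No test between conditions was run, since there are no replicates. Consecutive tiles of each window's length ran to the last peak of each chromosome. A lost siControl peak has no siTTF-1 peak, a kept one has one, and a gained siTTF-1 peak has no siControl peak. By the naming rule, all 7 members are named, with every peak by position where a list had 5 or fewer in a window, and otherwise counts, ranges and the 3 lowest numbers. The text departs from it where peaks of several lists share a site: the site's position is then given once, with each list's peak number. Other peaks were named after their values were seen. The other AP-1 genes of a fixed list were not placed, since no hg18 annotation was used here. The members, windows and comparisons were chosen with earlier results of these data known. Promoter entries were found for 6 of 7 members (not FOSL1).

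Python 3.11.15, NumPy 2.4.6, SciPy 1.17.1 and matplotlib 3.10.9 were used. On simulated lists, 10 of 10 overlap counts equalled those of bedtools 2.31.1. Alternatives were other overlap rules, window edges and sizes, shortened lists, merged peaks, the other TTF-1 list and leaving out each locus.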

Additional observations from a re-analysis of the deposited data

How the results depend on the processing

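Of the 84 alternatives for shares that could change a value, 81 stayed inside the interval of the reported share, but the intervals are wide. Moves of over 1.5 times inside them were from 56.2% to 31.2% for siControl peaks with TTF-1 1.5 h (centres within 200 bp) and from 31.2% to 18.2% for siTTF-1 peaks without a siControl peak (widest 50% of each list). A549 peaks on siTTF-1 peaks went from 100% to 50%, 1 of 2, and siTTF-1 peaks with Smad4 from 12.5% to 20% (first 50% by number). The share with A549 Smad3 went from 18.8% to 9.09%, 10% and 12.5% (widest 50%, first 50%, centres within 200 bp). With the widest 50% of every list, 45.5% of Smad3 siTTF-1 peaks had TTF-1 0 h. When 50% of the peak had to be covered, 0% had Smad4 and 0% had A549 Smad3. Under the same rule the whole list had 1.96% and 8.38%. Each Smad4 or A549 peak of the windows was narrower than 50% of its siTTF-1 peak, so the widths alone fixed the 0%. Leaving out 1 locus at a time gave 58.3% to 76.9% for Smad3 siControl peaks still called, 26.7% to 41.7% for siTTF-1 peaks without a siControl peak, 50% to 61.5% for siControl peaks with TTF-1 1.5 h and 71.4% to 83.3% for siTTF-1 peaks with TTF-1 0 h. It gave 7.14% to 18.2% for siTTF-1 peaks with Smad4, 8.33% to 27.3% with A549 Smad3, 100% for A549 peaks with siTTF-1 and 72.7% to 88.9% for TTF-1 0 h peaks still called.

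Counts of peaks moved mainly with list length, by construction. The widest 50% of each list left 15 TTF-1 0 h, 11 TTF-1 1.5 h, 1 Smad4 siTTF-1 and 1 A549 peak, the last 2 in 1 locus each. The first 50% by peak number left 7 and 10 Smad3 peaks (siControl and siTTF-1) and 14 and 9 TTF-1 peaks (0 h and 1.5 h). With lists shortened to 1605 peaks, 3 Smad3 siControl and 3 Smad3 siTTF-1 peaks in 2 loci each and 1 TTF-1 peak in 1 locus at each time were left. With windows narrowed by 10 kb, A549 peaks were in 1 locus. Leaving aside Smad4 siControl, whose list of 1 peak could not change, the other 30 of 42 alternatives for peaks and 35 of 42 for loci stayed within 1.5 times. No paired analysis was possible because each condition had 1 library.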
